A study of Mus musculus with 6 samples.

Results

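The genes examined encode the subunits of the proteasome and of its activators: every gene in the expression table whose symbol begins with Psma, Psmb, Psmc, Psmd or Psme and ends in a number. The rule found 43 genes of the 23420 in the table (8 Psma, 11 Psmb, 6 Psmc, 14 Psmd and 4 Psme genes). RNA was sequenced from mouse embryonic lungs at E11.5dpc (embryonic days post coitus), when the early epithelial tubes branch into the surrounding mesenchyme. The control genotype was Rptor f/+; Shh Cre/+, measured in 3 pools, and the mutant genotype was Rptor f/f; Shh Cre/+, also measured in 3 pools. A pool combined 3 or 4 lungs that shared a genotype. By these labels, both groups carried the Cre recombinase under Shh, which is active in the lung epithelium, and the controls carried 1 floxed Rptor allele, although a heading in the supplement of the study names the controls of this stage by Shh Cre/+ alone. Rptor encodes Raptor, the scaffold protein of the kinase complex mTORC1, and the comparison asks which transcripts differ in lungs whose epithelium lacks that complex. RNA came from whole lungs, so mesenchymal, vascular and blood cells, in which the recombinase is not known to act, contributed to every value. In such bulk samples, fewer cells of a type and less RNA per cell cannot be told apart.

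The proteasome is the barrel-shaped protease that degrades proteins tagged with ubiquitin. Its core is a stack of rings: outer rings of alpha subunits (Psma genes) gate the entry, and inner rings of beta subunits (Psmb genes) hold the catalytic sites. A cap binds the core, unfolds substrates with a ring of ATPases (Psmc genes) and recognises and strips ubiquitin with non-ATPase subunits (most Psmd genes). The Psme genes encode activators that can bind the core in place of the cap. In cells of the immune system or under interferon, Psmb8, Psmb9 and Psmb10 take the place of the constitutive catalytic subunits Psmb5, Psmb6 and Psmb7. mTORC1 is known to influence both protein synthesis and protein breakdown, in part through the transcription factor NFE2L1, which can raise the transcription of many proteasome genes together.

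NFE2L1 and its relative NFE2L2 bind the antioxidant response element, whose core letters are TGACNNNGC. RefSeq promoter windows (build GRCm38.p6, from 250 bases before the start of a transcript to 50 bases after it) were at hand for 36 of the 43 genes, as 39 windows; those of Psma8, Psmb1, Psmb2, Psmb7, Psmc3, Psmd3 and Psmd7 were not among them. On either strand, the letters were present in 6 of the 39 windows (15.4%), compared with 12.4% of all 32851 windows. The sites are printed because the subunits they belong to are described below. Capitals mark the match to the motif, and each sequence runs 5′ to 3′ on the strand of the gene. Distances are counted from the RefSeq transcript start, which can differ from the start of the GENCODE gene positions given below. The Psme4 site lies inside the GENCODE position of its gene.
Psmb5, chr14:54618024-54618052, minus strand, 47 bases before the start: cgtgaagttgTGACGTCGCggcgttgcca
Psmb6, chr11:70525338-70525366, plus strand, 9 bases before the start: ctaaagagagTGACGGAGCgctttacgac
Psmd9, chr5:123228149-123228177, plus strand, 31 bases before the start: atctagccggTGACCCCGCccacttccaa
Psme4, chr11:30771758-30771786, plus strand, 7 bases before the start: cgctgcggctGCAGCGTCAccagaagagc
Psmc6, chr14:45329587-45329615, plus strand, 227 bases before the start: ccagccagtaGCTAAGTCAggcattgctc
Psmd12, chr11:107479278-107479299, plus strand, 247 bases before the start: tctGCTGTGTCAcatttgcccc
In Psme4, Psmc6 and Psmd12 the motif lies on the opposite strand and is read there in reverse. The letters CCAAT, searched in the same way, were in 14 of the 39 windows (35.9%) and in 37.4% of all windows. A match is only a run of letters and not a measured binding site.

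Values are normalized counts: the reads assigned to a gene, scaled by the size factor of their library. The libraries held 20197642 to 21276090 reads assigned to genes. Rptor had 2126, 2193 and 2279 normalized counts in the control pools and 2023, 2137 and 2148 in the mutant pools. The groups overlapped (log2 difference -0.065, SE 0.046, limma adjusted p = 0.584). Counts over the whole gene in the whole lung do not isolate the floxed exons or the epithelium, so they do not check the deletion. Markers of lung tissue were present in every pool: Nkx2-1, the transcription factor of the lung epithelium, had 1977 to 2686 normalized counts, and Tbx4, that of the lung mesenchyme, 3045 to 4491. Most epithelial markers had lower values in the mutant pools. Of 15 epithelial markers, 7 were lower and 0 higher at an adjusted p under 0.05, among them Cdh1, the gene for E-cadherin (log2 difference -0.97), Cldn6, a tight junction protein (-0.71), and Krt8, a keratin (-0.55). Their summed normalized counts were 16234 to 20175 in the controls and 12698 to 13785 in the mutants. Of 8 mesenchymal markers, 3 collagen genes were higher (Col1a1 by 0.49, Col1a2 by 0.34 and Col3a1 by 0.26). The list sums were 85163 to 91021 in the controls and 105404 to 112541 in the mutants, and these 3 genes made up most of them. At an unadjusted p under 0.05, 14 epithelial genes were lower and 1, the keratin gene Krt19, was higher (log2 difference 0.44), and 4 mesenchymal genes were higher; 6.89% of all tested genes were lower and 6.67% higher. The adjusted calls rest on few pools: without control pool 1 or mutant pool 3 the adjusted p of the 6 genes named was above the threshold (0.125 to 0.2575 and 0.071 to 0.2686), and some of them also missed it without mutant pool 1 or 2. No gene of the endothelial, leukocyte, erythroid or cardiac lists had an adjusted p under 0.05 in limma. At the unadjusted threshold, 6 of 8 endothelial and 1 of 11 leukocyte genes were higher, 1 of 6 cardiac genes was lower, and 0 of 6 erythroid genes passed. Endothelial sums were 13219 to 14918 in the controls and 15393 to 16107 in the mutants, cardiac sums 955 to 1043 and 693 to 803, and erythroid sums 96203 to 124211 and 95449 to 118796; Hba-a1 was listed at 0 in all pools. The part of cell composition in the proteasome values below was not tested.

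Control pool 3 stood apart from the other controls. Gene counts of control pools 1 and 2 differed by a chi-square of 4.22 per degree of freedom, but control pool 3 differed from them by 7.52 and 13.2; pairs of mutant pools differed by 2.13 to 4.33. The proteasome genes shared in this. Of the 39 with a mean of at least 100 normalized counts, control pool 3 was the lowest of the 3 controls for 35, whereas it was the lowest for 43.7% of all genes with such a mean. It lay below the mean of the 6 pools for 33 of the 39, beside 52.6% of all such genes. Control pool 1 lay above that mean for 35 of the 39, while it lay below for 50.1% of all such genes. Results that change without control pool 3 are therefore given both ways.

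**Figure D1:**
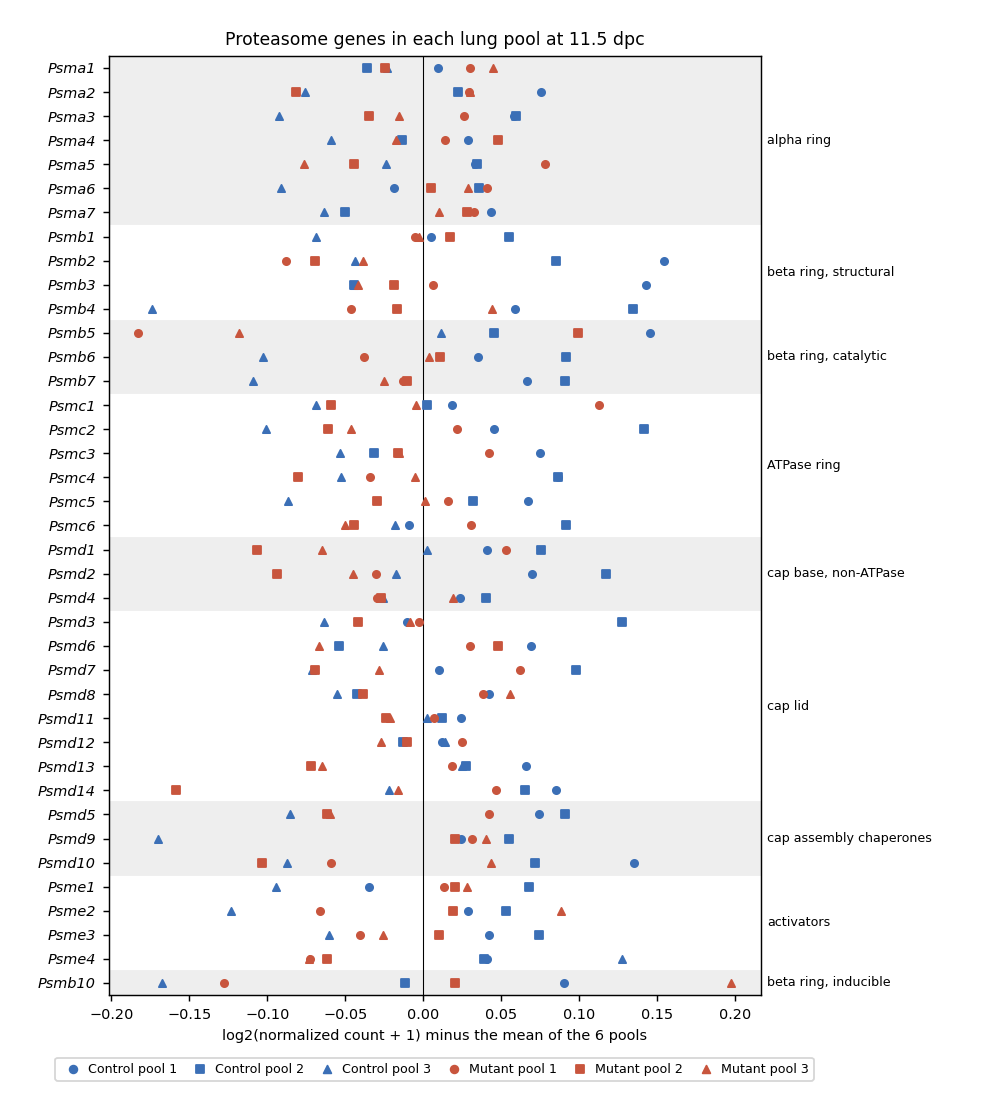
Each row is a proteasome gene with a mean of at least 100 normalized counts, and each point is a pool (control blue, mutant red; circle, square and triangle are pools 1, 2 and 3), placed by log2(normalized count + 1) minus the mean of the 6 pools. The blue triangles of control pool 3 lie left of 0 for 33 of 39 genes, and in Psme4, Psmd2 and Psmd13 all red points lie left of all blue points.

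Few genes of the whole table passed the adjusted threshold, and no proteasome gene was among them. At an adjusted p under 0.05 (limma, Benjamini-Hochberg adjustment over all 17168 genes tested), 0 of the 43 genes passed, compared with 0.501% of all tested genes. With so low a share in the whole table, the 0 says little about the proteasome genes in particular. edgeR and DESeq2 on reads recovered from the same values also found 0. At an unadjusted p under 0.05, 3 genes were lower in the mutants (Psme4, Psmd2 and Psmb2) and 0 were higher; among all genes 6.89% were lower and 6.67% higher. In 3 genes (Psme4, Psmd2 and Psmd13) each mutant pool lay below all control pools, and in 0 genes above; among all genes the shares were 10.5% and 9.77%. All 43 genes passed the filter on low values. Fitted differences were below 0 for 28 genes (65.1%) and above 0 for 15, also with TMM or upper-quartile scaling. They were below 0 for 50.5% of all tested genes and for 53.5% of those with a mean of at least 1000. For 19 of the 43 genes the sign changed when some single pool was left out. The median log2 difference was -0.016, beside -0.0021 over all tested genes.

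The sizes of the differences were small. The median absolute log2 difference of the 43 genes was 0.037, compared with 0.101 over all tested genes and 0.057 over the 5281 genes with a mean of at least 1000. The 39 genes with a mean of at least 100 ranged in mean from 202 to 8412 normalized counts, and their log2 differences from -0.14 (Psme4) to 0.061 (Psmd9). For 36 of the 39, the 95% confidence interval stayed within 0.25 on the log2 scale on either side of 0, that is, between 15.9% lower and 18.9% higher. The exceptions were Psmb5, Psmb10 and Psmd10. An interval that left out 0 did not suffice for the adjusted threshold: Psme4 (-0.14, SE 0.039) had an adjusted p = 0.164 in limma. Outside the proteasome, the heat shock gene Hsph1 (-0.18, SE 0.040) also missed it (adjusted p = 0.0844 in limma). Col3a1 (0.26, SE 0.047) passed it (adjusted p = 0.047 in limma). Small differences of single genes could therefore be missed at this number of pools.

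**Figure D2:**
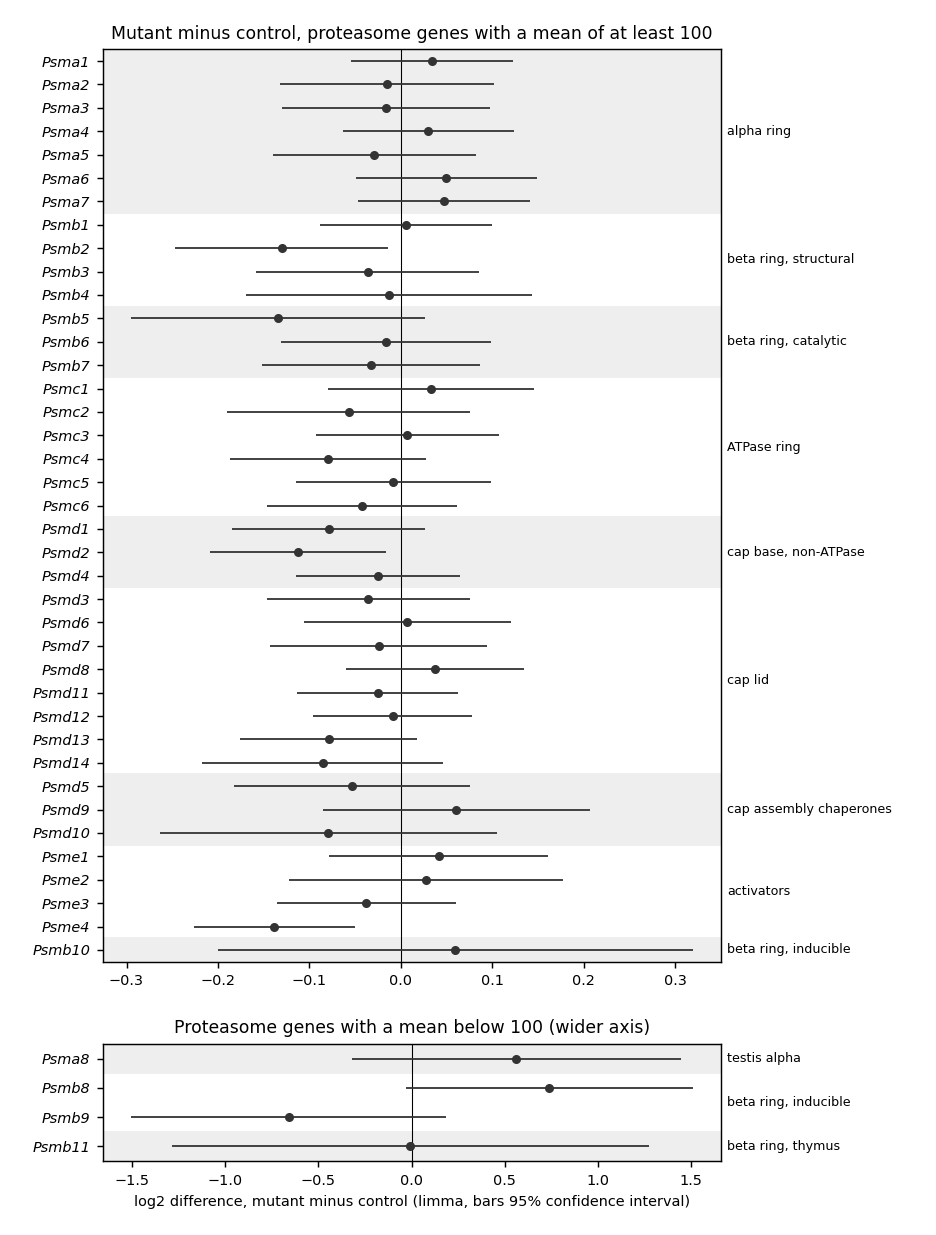
Points give the log2 difference (mutant minus control) of each proteasome gene in limma, bars its 95% confidence interval, and shading the groups of subunits; the lower panel holds the 4 genes with a mean below 100 on a wider axis. Only the intervals of Psmb2, Psmd2 and Psme4 leave out 0, and none of the 3 passed the adjusted threshold.

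Without control pool 3 more members were lower in the mutants. That pool was the lowest control for 35 of the 39 genes with a mean of at least 100. Leaving it out therefore raised the control mean of those genes by construction. With the remaining 5 pools, 2 of the 43 genes had an adjusted p under 0.05, compared with 2.75% of the 16993 genes then tested. These were Psmb2 (log2 difference -0.18, adjusted p = 0.028) and Psmd2 (-0.15, adjusted p = 0.040). At an unadjusted p under 0.05, 10 genes were lower and 0 higher, beside 8.58% of all genes lower. The 10 genes were Psmb2, Psmb4, Psmb5, Psmb7, Psmc2, Psmc4, Psmd2, Psmd5, Psme3 and Psme4. The median log2 difference of the members was then -0.056, with 33 of them fitted lower and 10 higher, beside a median of 0.0031 over all tested genes. Psmb1, Psmb10, Psmc3, Psmd6, Psmd9 and Psme2 went from above to below 0 (-0.027, -0.0093, -0.018, -0.0040, -0.0092 and -0.027). Psmb11 went the other way (0.32). Leaving out another pool gave 0 genes at the adjusted threshold and 1 to 4 lower at an unadjusted p under 0.05.

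The alpha ring, which gates the entrance of the core, was level between the groups. Of its 7 constitutive genes, 4 were fitted higher and 3 lower, with a median log2 difference of 0.030. Their summed normalized counts were 19286, 18905 and 18091 in the controls and 19326, 18722 and 18911 in the mutants. Psma7 had 3312, 3104 and 3075 normalized counts in the controls and 3288, 3278 and 3237 in the mutants (log2 difference 0.047, adjusted p = 0.674). Psma6 had 2570, 2668 and 2443 in the controls and 2678, 2612 and 2656 in the mutants (0.050, adjusted p = 0.675). In both genes the groups overlapped. Psma1, Psma2, Psma3, Psma4 and Psma5 had log2 differences between -0.029 and 0.034. Psma8, an alpha subunit known from testis, was close to the lower end of detection. It had 13.8, 12.4 and 9.94 normalized counts in the controls and 31.7, 9.81 and 18.7 in the mutants, so mutant pool 1 was high and mutant pool 2 the lowest of all 6 (log2 difference 0.56, SE 0.40, adjusted p = 0.578). With a pool left out, the log2 difference of Psma8 was between 0.17 and 0.97.

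Among the beta subunits without a catalytic site, Psmb2 was the gene with the lowest p. It lies at chr4:126677630-126709714 and had 3497, 3332 and 3048 normalized counts in the controls and 2956, 2994 and 3058 in the mutants. Only control pool 3 reached into the mutant range. The log2 difference was -0.13 (SE 0.052), or 8.65% lower, with an adjusted p = 0.308 in limma. The adjusted p was between 0.028 without control pool 3 and 0.599 without control pool 1. The other subunits of this kind, Psmb1, Psmb3 and Psmb4, had log2 differences between -0.036 and 0.0056, and their groups overlapped.

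The constitutive catalytic subunits Psmb5, Psmb6 and Psmb7 carry the chymotrypsin-like, caspase-like and trypsin-like activities. Psmb5 had 1788, 1668 and 1629 normalized counts in the controls and 1424, 1732 and 1489 in the mutants. Mutant pools 1 and 3 were below every control, and mutant pool 2 lay within the controls (log2 difference -0.13, SE 0.072, adjusted p = 0.447). The difference was -0.077 without mutant pool 1 (adjusted p = 0.7605) and -0.22 without mutant pool 2 (adjusted p = 0.291). Psmb6 had 4138, 4303 and 3761 in the controls and 3933, 4068 and 4048 in the mutants (-0.016, adjusted p = 0.920). Psmb7 had 3594, 3655 and 3181 in the controls and 3400, 3407 and 3372 in the mutants (-0.032, adjusted p = 0.843). The mutant pools of Psmb6 and Psmb7 lay within the range of the controls, and both differences turned to above 0 without control pool 2 (0.026 and 0.0051). The 7 constitutive beta genes together summed to 23088, 23005 and 20644 normalized counts in the controls and 21259, 21827 and 21642 in the mutants, where control pool 3 was the lowest of the 6 pools. Processed pseudogenes of Psmb5, Psmb6 and Psmb7 exist and were not rows of the table, so reads of these genes may have been split or discarded in counting.

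The inducible catalytic subunits were scarce in both groups. Psmb8 had 6.88, 15.5 and 7.95 normalized counts in the controls and 17.4, 17.7 and 14.7 in the mutants. Control pool 2 reached into the mutant range (log2 difference 0.74, SE 0.35, adjusted p = 0.387 in limma), and the log2 difference was 1.06 without that pool (adjusted p = 0.161) and 0.53 without control pool 1 (adjusted p = 0.639). Psmb9 had 8.84, 10.3 and 12.9 in the controls and 9.20, 3.92 and 6.87 in the mutants (-0.66, SE 0.38, adjusted p = 0.481). The Psmb9 difference was -0.90 without mutant pool 1 and -0.37 without mutant pool 2. Psmb10 was the most abundant of them, with 214, 199 and 179 in the controls and 184, 204 and 231 in the mutants (0.060, SE 0.12, adjusted p = 0.868). Its difference turned to below 0 without control pool 3 (-0.0093) or mutant pool 3 (-0.024). Psmb11, the thymus-specific catalytic subunit, had 0.982, 1.03 and 2.98 in the controls and 1.02, 2.94 and 0.982 in the mutants, which is 1 to 3 reads a library. Psmb9 overlaps Tap1, and Psmb8 overlaps Gm20496, on the opposite strand; whether counting used strand is not given in the sources used here. The 11 leukocyte markers tested, which mark cells that express these subunits, summed to 2152 to 2616 normalized counts in the controls and 2609 to 2815 in the mutants. The part of leukocytes in the Psmb8 values was not tested.

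Each inducible subunit was compared with the constitutive subunit it replaces within the same library. Per kb of transcript, the mean level of Psmb5 over all 6 pools was 220-fold that of Psmb8, that of Psmb6 was 789-fold that of Psmb9, and that of Psmb7 was 19.2-fold that of Psmb10. For the ratio in each pool, 1 was added to both normalized counts, which moves the ratios of the scarce Psmb8 and Psmb9. The log2 ratio of Psmb8 to Psmb5 was -8.68, -7.52 and -8.37 in the controls and -7.13, -7.39 and -7.42 in the mutants. The groups did not overlap, and the means differed by 0.87 (exact permutation test, two-sided, p = 0.1, adjusted over the 3 ratios 0.3). With 3 pools against 3, 0.1 is the smallest p that this test can give. The log2 ratio of Psmb9 to Psmb6 was -9.48, -9.33 and -8.84 in the controls and -9.35, -10.5 and -9.77 in the mutants (difference -0.64, exact p = 0.2, adjusted 0.3). The log2 ratio of Psmb10 to Psmb7 was -4.24, -4.37 and -4.32 in the controls and -4.38, -4.23 and -4.04 in the mutants (difference 0.092, exact p = 0.6). The numerators of the first and the second ratio rest on few reads. With 0.1 added in place of 1, the differences were 0.93, -0.72 and 0.092. With a pool left out, the Psmb8 to Psmb5 difference was 0.62 to 1.21, the Psmb9 to Psmb6 difference -0.89 to -0.34 and the Psmb10 to Psmb7 difference 0.0037 to 0.17.

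**Figure D3:**
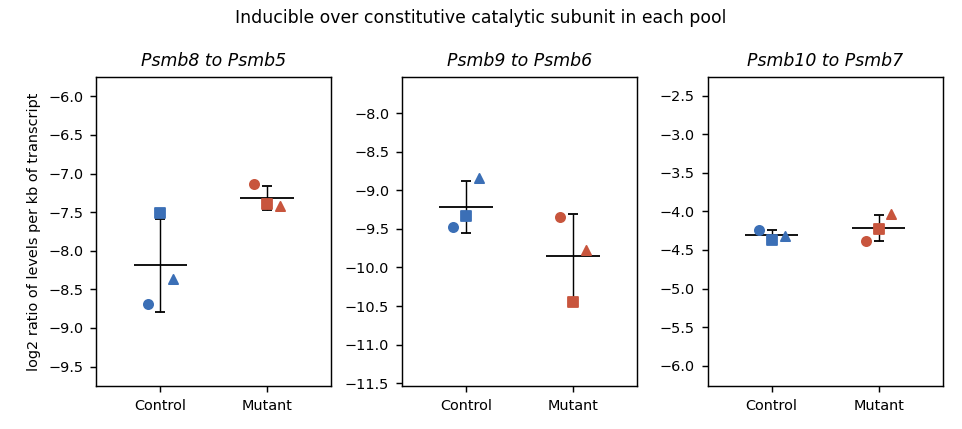
Log2 ratio of the level per kb of transcript (1 added to each normalized count) of each inducible catalytic subunit to its constitutive counterpart in the 3 control (blue) and 3 mutant (red) pools (circle, square and triangle are pools 1, 2 and 3); horizontal lines are means and bars are SD (n = 3), and each panel spans the same number of log2 units. The groups do not overlap for Psmb8 to Psmb5 (-8.68 to -7.52 against -7.42 to -7.13) and overlap for the other two.

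The ATPase ring, which unfolds substrates and threads them into the core, had a median log2 difference of -0.025 over its 6 genes, with 4 fitted lower and 2 higher. Psmc4 had 3860, 3860 and 3505 normalized counts in the controls and 3551, 3439 and 3622 in the mutants (log2 difference -0.080, SE 0.048, adjusted p = 0.502). Psmc2 had 2948, 3151 and 2663 in the controls and 2899, 2738 and 2766 in the mutants (-0.057, adjusted p = 0.727). In both, control pools 1 and 2 were above every mutant pool, and control pool 3 was not. Psmc6 had 2615, 2803 and 2598 in the controls and 2688, 2551 and 2541 in the mutants (-0.043, adjusted p = 0.741). Psmc1, Psmc3 and Psmc5 had log2 differences between -0.0084 and 0.033.

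In the base of the cap, the non-ATPase genes Psmd1, Psmd2 and Psmd4 were all fitted lower (3 of 3), with a median log2 difference of -0.079. Psmd1 and Psmd2 encode the large scaffold subunits to which ubiquitin receptors and shuttle proteins bind, and Psmd4 encodes a ubiquitin receptor. Psmd2, at chr16:20651652-20663414, had the highest normalized count of all the proteasome genes, without regard to length. It had 8816, 9113 and 8301 normalized counts in the controls and 8226, 7873 and 8145 in the mutants. Each mutant pool lay below all control pools, although control pool 3 and mutant pool 1 were close. The log2 difference was -0.11 (SE 0.043), or 7.51% lower, with an adjusted p = 0.288 in limma. The adjusted p was between 0.040 without control pool 3 and 0.564 without mutant pool 3. Psmd1 had 5457, 5589 and 5313 in the controls and 5504, 4927 and 5071 in the mutants (-0.079, adjusted p = 0.502), with mutant pool 1 among the controls. Psmd4 had a log2 difference of -0.025. The 3 genes summed to 17239, 17703 and 16480 in the controls and 16589, 15664 and 16174 in the mutants, 5.82% lower, with an overlap of control pool 3 and mutant pool 1.

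The lid of the cap, which holds the deubiquitinase Psmd14, had 6 genes fitted lower and 2 higher, with a median log2 difference of -0.025. Psmd13, a structural lid subunit, had 2315, 2255 and 2251 normalized counts in the controls and 2241, 2104 and 2115 in the mutants. The groups did not overlap, but the gap between control pool 3 and mutant pool 1 was small (log2 difference -0.079, SE 0.044, adjusted p = 0.458). Psmd13 overlaps Sirt3 on the opposite strand. Psmd14 had a log2 difference of -0.086 (adjusted p = 0.570), and Psmd3, Psmd6, Psmd7, Psmd8, Psmd11 and Psmd12 lay between -0.035 and 0.038. Psmd5, Psmd9 and Psmd10 encode chaperones that help to assemble the base and are not part of the finished cap. Their log2 differences were -0.053, 0.061 and -0.080, and their groups overlapped. Without control pool 3 the Psmd9 difference was -0.0092.

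The activator Psme4 had the lowest p of all 43 genes. Psme4, at chr11:30771726-30880361, encodes a large activator that caps the core without ATP and is known for its part in the degradation of acetylated histones. It had 4602, 4596 and 4886 normalized counts in the controls and 4252, 4286 and 4251 in the mutants. The mutant pools lay close together and all below the controls, and control pool 3 was the highest of the 6 pools, unlike in most of the other genes. The log2 difference was -0.14 (SE 0.039, 95% confidence interval -0.23 to -0.051), or 9.16% lower, with an adjusted p = 0.164 in limma. With any single pool left out, the log2 difference was -0.15 to -0.11 and the adjusted p 0.121 to 0.493; the unadjusted p was under 0.05 each time. Psme3, the nuclear activator, had 5429, 5551 and 5055 in the controls and 5125, 5309 and 5178 in the mutants (-0.038, adjusted p = 0.755). Psme1, which pairs with Psme2 in the interferon-inducible activator, had 1152, 1237 and 1105 in the controls and 1191, 1197 and 1203 in the mutants (0.041, adjusted p = 0.782). Psme2 had a log2 difference of 0.027. A near copy of Psme2, Psme2b, was not a row of the table.

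Across the 31 constitutive subunits of the core and cap, normalized counts summed to 104732, 104876 and 97744 in the controls and 102031, 98795 and 100217 in the mutants. The means were 102451 ± 4077 and 100347 ± 1622 (SD, n = 3), that is, 0.493% and 0.482% of all counts. The mutant sum was 2.05% lower, less than the SD of the controls, and all mutant pools lay within the control range. Both comparisons depended on control pool 3, which had the lowest sum (97744). The other controls (104732 and 104876) lay above every mutant pool, so without control pool 3 the groups did not overlap.

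The constitutive subunits, which the assembled particle holds in fixed numbers, differed in normalized counts per kb, and the spread depended on the length used. Levels were compared per kb, over all 6 pools, first on the length of the principal transcript. The 31 constitutive subunits ranged from 740 normalized counts per kb of transcript (Psmd11) to 5065 (Psmb6), a 6.84-fold range, with a median of 2192. Per kb of coding sequence the range was 3.4-fold, from 1665 (Psmd11) to 5661 (Psmb6), with a median of 3088. The alpha ring depended most on the length used: its 7 genes spanned 4.35-fold per kb of transcript (809 in Psma3 to 3518 in Psma7) and 1.44-fold per kb of coding sequence (3011 to 4322). Psma3 and Psmd11 have long untranslated parts in the annotated principal transcript, and the transcripts actually present were not measured here. Per kb of coding sequence, the ATPase ring spanned 1.45-fold, the constitutive beta ring 2.76-fold and the lid 2.66-fold. Psmb5 was the lowest of the 7 constitutive beta genes on both scales (1804 and 2048 per kb). The chaperone genes were lower, with 1165 (Psmd5), 1362 (Psmd9) and 573 (Psmd10) per kb of coding sequence. The activator Psme3 was at 6922 per kb of coding sequence, above every subunit of the core and cap, but at 1980 per kb of transcript, below the median of the constitutive subunits. The inducible Psmb10 was at 246, Psmb8 at 16.1 and Psmb9 at 13.2 per kb of coding sequence, Psma8 at 21.4 and Psmb11 at 1.83.

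**Figure D4:**
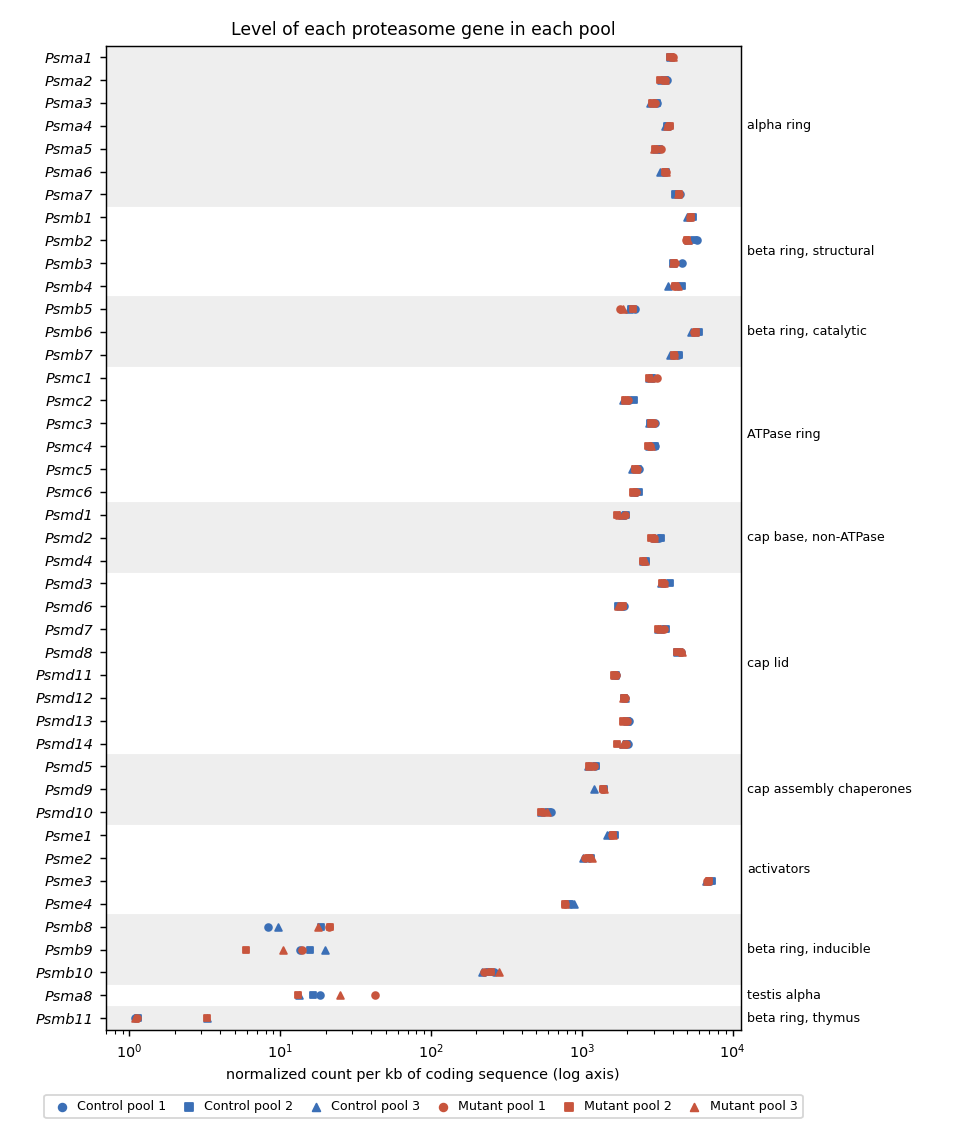
Normalized count per kb of coding sequence of each proteasome gene on a log axis, with a point for each pool (control blue, mutant red; circle, square and triangle are pools 1, 2 and 3) and shading by group of subunits. The 31 constitutive genes have means between 1665 and 5661, and Psmb8, Psmb9, Psma8 and Psmb11 have means of 21.4 or less, where the pools scatter most.

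Other genes of the pathway were examined as lists. Of 15 genes for proteasome assembly and accessory proteins, 0 had an adjusted p under 0.05 and 0 an unadjusted p under 0.05 in limma, with a median log2 difference of -0.0041. The lowest p in that list was that of Ube3c, a ubiquitin ligase bound to the proteasome, with 2306, 2256 and 2288 normalized counts in the controls and 2133, 2211 and 2121 in the mutants (log2 difference -0.084, adjusted p = 0.403). It was followed by Psmf1, an inhibitor of the proteasome (-0.090, adjusted p = 0.502). Of 10 genes for NFE2L1, NFE2L2 and the proteins that process or partner them, 0 passed at either threshold, with a median of -0.038. Nfe2l1 itself had 3757, 3941 and 4046 normalized counts in the controls and 3891, 3782 and 3937 in the mutants (-0.016, adjusted p = 0.902). The lowest p were those of Mafg, a small MAF partner (-0.16, adjusted p = 0.518), and Syvn1, a ubiquitin ligase of the endoplasmic reticulum (-0.090, adjusted p = 0.600). Of 14 genes for ubiquitin, its activation and the delivery of substrates, 0 passed the adjusted threshold and 1 was higher at an unadjusted p under 0.05. This was Ubqln2, a shuttle protein, with 4233, 4174 and 4022 normalized counts in the controls and 4407, 4572 and 4350 in the mutants (0.10, adjusted p = 0.305).

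The products of the proteasome feed antigen presentation on MHC class I. Of 17 genes for that process and for interferon signaling, 0 had an adjusted p under 0.05 in limma, while 2 were lower and 3 higher at an unadjusted p under 0.05, beside 6.89% and 6.67% of all tested genes. The median log2 difference was 0.067. H2-K1, a class I heavy chain, had 263, 243 and 200.8 normalized counts in the controls and 163, 165 and 146 in the mutants. Each mutant pool lay below all control pools (log2 difference -0.57, SE 0.12, adjusted p = 0.0842 in limma and 0.0265 in DESeq2). B2m, the light chain that pairs with it, had 1244, 1356 and 1115 in the controls and 1513, 1504 and 1519 in the mutants, so that the groups separated in the opposite direction (0.29, SE 0.067, adjusted p = 0.102 in limma and 0.0201 in DESeq2). Without control pool 3, H2-K1 had an adjusted p of 0.00765 and B2m of 0.0353. DESeq2 and the fit without control pool 3 passed more genes in the whole table (278 and 468) than the main fit (86). Without control pool 1 or mutant pool 3, 1 gene of the whole table passed.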

How the data were processed

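RNA of 6 pools was compared, 3 per genotype, with groups taken from the labels. The submitters' processing notes name Trim Galore, HISAT2, featureCounts, DESeq2 and the build mm10, without versions; annotation, strand setting and filters are not given in the sources used here. The authors deposited signal values, which are read counts of each gene scaled by a library size factor, with their mean, and their own comparison (log2 fold change and its error, a test score and p-values), which was not used. In all 6 libraries the steps between low values gave back whole reads for 100% of values (tolerance 0.01). The table has 27 symbols turned into dates and 2 repeated symbols.

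limma 3.58.1 (R 4.3.3; eBayes with a trend) was fitted to log2(normalized count + 1) for genes that reached 1 in 3 or more libraries. P-values were adjusted by Benjamini-Hochberg over all these genes, and the fit was checked on simulated data. Differences are on that scale. edgeR 4.0.16 (quasi-likelihood, TMM) and DESeq2 1.42.0 on the recovered reads were alternatives. The study states that it combined mutants of several litters for its statistics, but not which litters entered which pool, so p-values measure the spread between these pools.

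Members and lists were chosen with earlier results of these data known. Values per pool are given for the 3 genes of lowest p in each of Psma, Psmb, Psmc, Psmd and Psme, the inducible and constitutive catalytic subunits, Psma8 and Psmb11, and a value, for some per pool, is given in the other lists for up to 3 genes past the adjusted threshold or the 2 of lowest p; Nfe2l1, Nkx2-1, Tbx4 and Krt19 were named outside this rule, after their values were seen, and 1 gene that the rule names is not reported here. The lists cover assembly, the NFE2L1 axis, ubiquitin, MHC class I with interferon, heat shock, and epithelial, leukocyte, erythroid, endothelial, mesenchymal and cardiac markers; Paaf1 and Adgre1 were not rows under these symbols. Gene positions and lengths are from GENCODE on GRCm38, the assembly of mm10, and promoter windows from RefSeq. Protein sequences were not used here.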

Additional observations from a re-analysis of the deposited data

How the results depend on the processing

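Across the whole table, 86 genes passed the adjusted threshold in limma, 8 without the variance trend, 79 with edgeR and 278 with DESeq2 on recovered reads, and 1 to 468 with a pool left out, where 468 was without control pool 3. edgeR without control pool 3, chosen after seeing the data, gave 545. Of the proteasome genes, 0 passed under each alternative that used all 6 pools. With a pool left out 0 to 2 passed, and edgeR without control pool 3 gave 2 (Psmb2 and Psmd2). The number lower at an unadjusted p under 0.05 was 3, but 1 without the variance trend, 1 to 10 with a pool left out and 11 with edgeR without control pool 3; the number higher was 0 to 1 with a pool left out. The median log2 difference of the proteasome genes stayed below 0 throughout, from -0.057 (edgeR without control pool 3) to -0.0050 (without control pool 1). Over all tested genes the medians in those fits were 0.0023 and -0.0012. Without control pool 2 the proteasome genes had a median of -0.0072 and all tested genes -0.0055.

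With a pool left out, the log2 difference changed sign for 19 of the 43 proteasome genes; among those with values per pool these were Psmb6 (-0.072 to 0.026), Psmb7 (-0.095 to 0.0051), Psmb10 (-0.024 to 0.14) and Psmb11 (-0.33 to 0.32). Hbb-bh1 also changed sign (-0.75 to 0.12). edgeR without control pool 3 gave -0.0051 for Psmb10 and 0.035 for Hbb-bh1. The causes were not tested. Scaling, filters and pseudocount changed no sign among the named proteasome genes.

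The replicate number as a block gave 71 genes and 0 proteasome genes. The labels do not say that a number marks a shared litter or day, so the numbers were not taken as a pairing. Deviations of same-numbered pools correlated at -0.032, 0.20 and 0.077 across genes, and those of differently numbered pools at -0.17 to 0.13. The highest value, 0.20, was that of the pools numbered 2, so the correlations do not settle whether numbers mark pairs.

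With 3 pools a group and reads of 1 to 31 for Psma8, Psmb8, Psmb9 and Psmb11, the differences of those 4 genes rest on few reads; counting error and variation between pools were not separated.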

Other observations

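Heat shock genes mostly had lower fitted values in the mutant pools. The list holds chaperones, some of which refold proteins or pass them on to the proteasome. It also holds mitochondrial chaperones and a transcription factor. Of 12 genes, 11 were fitted lower and 1 higher, beside 50.5% of all tested genes fitted lower. Their median log2 difference was -0.091. In limma, 0 had an adjusted p under 0.05, while 5 were lower and 0 higher at an unadjusted p under 0.05, beside 6.89% of all genes lower. Hsph1, a nucleotide exchange factor for HSP70 chaperones, had 3544, 3430 and 3621 normalized counts in the controls and 3098, 3157 and 3073 in the mutants (log2 difference -0.18, SE 0.040, adjusted p = 0.0844). Its adjusted p was 0.0368 without control pool 3 and 0.0342 with DESeq2. Those settings passed 468 and 278 genes in the whole table, beside 86 in the main fit. Without control pool 1 or mutant pool 3, 1 gene of the whole table passed. Hspa4l, a relative of it, had 215, 176 and 213 in the controls and 157, 129 and 138 in the mutants (-0.50, adjusted p = 0.124). The list summed to 89134 to 96186 normalized counts in the controls and 78434 to 88112 in the mutants, so the sums did not overlap. The part of cell composition in these values was not tested.

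Leukocyte genes of lowest p were Laptm5 (log2 difference 0.28, adjusted p = 0.178) and Fcer1g (0.29, adjusted p = 0.401), and endothelial ones Plvap (0.25, adjusted p = 0.0546) and Tie1 (0.27, adjusted p = 0.0922). Plvap had an adjusted p of 0.0202 and Tie1 of 0.0301 without control pool 3. The fit without that pool passed 468 genes in the whole table, beside 86 in the main fit and 1 without control pool 1 or mutant pool 3. Of the globin genes, Hbb-y had a log2 difference of 0.072 and Hbb-bh1 of -0.29, with 15059 normalized counts of Hbb-bh1 in control pool 3 and 4545 to 9007 in the other 5 pools. Of the heart genes, Myh6 had 108, 127 and 51.7 in the controls and 27.6, 51.0 and 32.4 in the mutants (-1.30, adjusted p = 0.135, and 0.00435 without control pool 3), and Myl7 had a log2 difference of -0.43 (adjusted p = 0.370).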
